A study of Mus musculus with 12 samples.

Results

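Fibrillar collagen is modified and crosslinked by a small set of enzymes, and the expression of 10 of their genes was followed across the 12 libraries of the study. The genes are those of the lysyl oxidases (Lox, Loxl1, Loxl2, Loxl3 and Loxl4), the lysyl hydroxylases (Plod1, Plod2 and Plod3), transglutaminase 2 (Tgm2) and a prolyl 4-hydroxylase subunit (P4ha1). They were chosen by gene symbol from the 56691 entries of the count table. All 10 were present and all 10 were among the 14394 genes with enough counts to be tested.

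The cells were MC3T3-E1, a wild-type mouse line from calvarial bone that starts as a pre-osteoblast and lays down a mineralizing collagen matrix. All groups were kept for 28 days in an osteogenic medium. It held 0.1 µM dexamethasone, 50 µg/ml ascorbic acid and 10 mM beta-glycerophosphate (BGP), a source of phosphate for mineral. For the last 24 h one group received ZK191784 and 25-hydroxyvitamin D, both at 100 µM. The second compound, written 25(OH)D, is the main form of vitamin D in blood and is converted to the active hormone. Another group received 100 µM 25(OH)D with 4 mM BGP on top of the medium, another received 100 µM 25(OH)D alone, and the control group received none of these. The 25(OH)D dose is given as labelled, and its unit may be a slip. The 3′ mRNA-seq libraries, 3 per group, came from 1 cell line, and the labels do not say whether they came from separate cultures. ZK191784 is known here by its code name, and there was no group given it without 25(OH)D.

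Collagen chains are hydroxylated in the endoplasmic reticulum before they fold. Prolyl hydroxylation stabilizes the triple helix, and hydroxylated lysines determine which crosslinks can later form. Outside the cell, lysyl oxidases turn lysines and hydroxylysines into aldehydes that condense into covalent crosslinks between neighbouring molecules. Transglutaminases join proteins by a different bond, between glutamine and lysine. In bone these steps set the strength of the matrix on which mineral is deposited. The prolyl and lysyl hydroxylases need ascorbic acid as a cofactor, and lysyl oxidases need copper.

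The libraries held between 3318723 and 5170980 counts. All 11 osteoblast markers examined had counts in every group. Their summed level was 54120 to 55160 counts scaled to a fixed library total (CPM) in 25(OH)D with ZK191784, 60110 to 71310 CPM in 25(OH)D with BGP, 60330 to 72740 CPM in 25(OH)D and 74260 to 103900 CPM in control. That sum hides opposite changes of its members. By the edgeR test at an adjusted p under 0.05, 2 of the 11 rose and 7 fell with 25(OH)D against control. Of all tested genes 4.76% were called higher and 3.93% lower there. With ZK191784 against 25(OH)D 6 of the 11 rose and 1 fell, where 1.42% of all tested genes were called higher and 2.11% lower. Spp1 (osteopontin) averaged 11082 CPM with ZK191784, 55717 CPM with BGP, 51551 CPM with 25(OH)D alone and 3394.9 CPM in control, and Sparc (osteonectin) 37406, 10843, 12553 and 71819 CPM in the same order. Ibsp (bone sialoprotein) averaged 4654 CPM with ZK191784, 121 CPM with BGP, 92.7 CPM with 25(OH)D alone and 13675 CPM in control. Among 7 muscle markers Myog was at 0 in every group, while Myod1 had 7 counts in the 25(OH)D libraries and 0 in the other groups, and group means of Acta1 were between 50.8 and 65.2 CPM. Among 6 endothelial markers Cdh5 was at 0 in every group, while group means were between 23.4 and 36.3 CPM for Pecam1 and between 4.53 and 11.5 CPM for Kdr. The 7 muscle genes summed to 29.1 to 93.3 CPM over all libraries and the 6 endothelial genes to 17.4 to 64.0 CPM. The macrophage list of 7 genes summed to 197 to 363 CPM in 25(OH)D with ZK191784, 170 to 359 CPM in 25(OH)D with BGP, 181 to 332 CPM in 25(OH)D and 202 to 416 CPM in control. Most of this was Ptprc, with group means between 182 and 242 CPM, and Cd68, between 36.5 and 47.8 CPM. Group means of Csf1r were between 1.90 and 2.00 CPM, and Itgam was at 0 in 25(OH)D and in control. Adipocyte markers summed to 6.99 to 9.21, 3.37 to 4.50, 1.58 to 6.15 and 8.43 to 9.99 CPM in the same order of groups, with counts for all 7 genes in each. Of these, Fabp4 averaged 4.39, 0.845, 0.882 and 5.86 CPM. Chondrocyte markers summed to 87.8 to 183, 65.9 to 120, 69.7 to 152 and 100.2 to 245 CPM. Most of this was Sox9, with group means between 92.4 and 122 CPM, while Col2a1 averaged 19.9, 1.87, 1.21 and 31.7 CPM. The part of these genes in the results was not tested. The libraries also differed in the log2 ratio of ribosomal protein gene counts to counts of Gm-numbered genes and pseudogenes, which ran between −1.88 and −0.53. Its mean was −1.26 ± 0.40 in 25(OH)D with ZK191784, −1.17 ± 0.61 in 25(OH)D with BGP, −1.21 ± 0.66 in 25(OH)D and −1.44 ± 0.67 in control (SD, n = 3 each).

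Reference promoter windows were at hand for 4 of the 10 genes (Loxl4, Plod1, Plod3 and P4ha1) and not used for Lox, Loxl1, Loxl2, Loxl3, Plod2 and Tgm2. They are given for Plod1, which changed, and for its relative Plod3 and for P4ha1, which did not pass the test, so that they can be compared. Each is the 250 bases before the transcription start in RefSeq on build GRCm38.p6. Plod1 lies at chr4:147936777-147937026 on the minus strand, Plod3 at chr5:136986769-136987018 on the plus strand and P4ha1 at chr10:59323046-59323295 on the plus strand. Capitals mark the letters searched for, on either strand. These were the nuclear receptor half-site AGGTCA, its variant GGGTCA, the half-site AGTTCA, its variant GGTTCA, and the hypoxia-response core ACGTG, none of which overlapped another in these windows.
Plod1: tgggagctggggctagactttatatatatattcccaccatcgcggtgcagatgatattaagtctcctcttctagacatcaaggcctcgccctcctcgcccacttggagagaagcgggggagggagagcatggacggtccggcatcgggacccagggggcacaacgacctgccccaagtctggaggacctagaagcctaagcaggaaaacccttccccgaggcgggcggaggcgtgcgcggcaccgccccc
Plod3: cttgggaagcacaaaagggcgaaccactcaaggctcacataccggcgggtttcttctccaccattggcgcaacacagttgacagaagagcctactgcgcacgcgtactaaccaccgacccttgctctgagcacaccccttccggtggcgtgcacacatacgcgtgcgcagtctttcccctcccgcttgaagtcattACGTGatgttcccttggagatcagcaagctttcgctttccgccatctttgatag
P4ha1: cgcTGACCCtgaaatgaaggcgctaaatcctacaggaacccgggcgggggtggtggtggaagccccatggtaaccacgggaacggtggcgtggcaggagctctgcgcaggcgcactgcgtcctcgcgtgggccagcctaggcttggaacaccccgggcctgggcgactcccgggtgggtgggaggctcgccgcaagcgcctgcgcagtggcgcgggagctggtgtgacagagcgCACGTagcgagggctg
The Plod1 window held none of these letters, which says nothing of factors that bind elsewhere. The Plod3 window held 1 ACGTG and no half-site. The P4ha1 window held 1 ACGTG and 1 GGGTCA, both on the reverse strand. Among 32851 such windows of the reference, ACGTG was found in 16.6%, GGGTCA in 11.6% and any of the half-sites in 38.6%. The Loxl4 window held none of the motifs. The GC content was 61.6% for Plod1, 55.6% for Plod3, 69.6% for P4ha1 and 76.0% for Loxl4, against a median of 52.4% over all windows.

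Over the 4 groups, 4 of the 10 genes differed in level by the edgeR quasi-likelihood test at an adjusted p under 0.05. These were Tgm2, Loxl2, Plod1 and Lox, with adjusted p = 8.75e-08, 0.00231, 0.00240 and 0.0117. The share of all tested genes called in the same way was 7.5%. The highest group mean was 46.6 times the lowest for Tgm2, 8.70 times for Loxl2, 2.25 times for Plod1 and 1.59 times for Lox. For the genes that did not pass, this ratio ran between 1.25 for Plod3 and 3.02 for Loxl3.

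**Figure D1:**
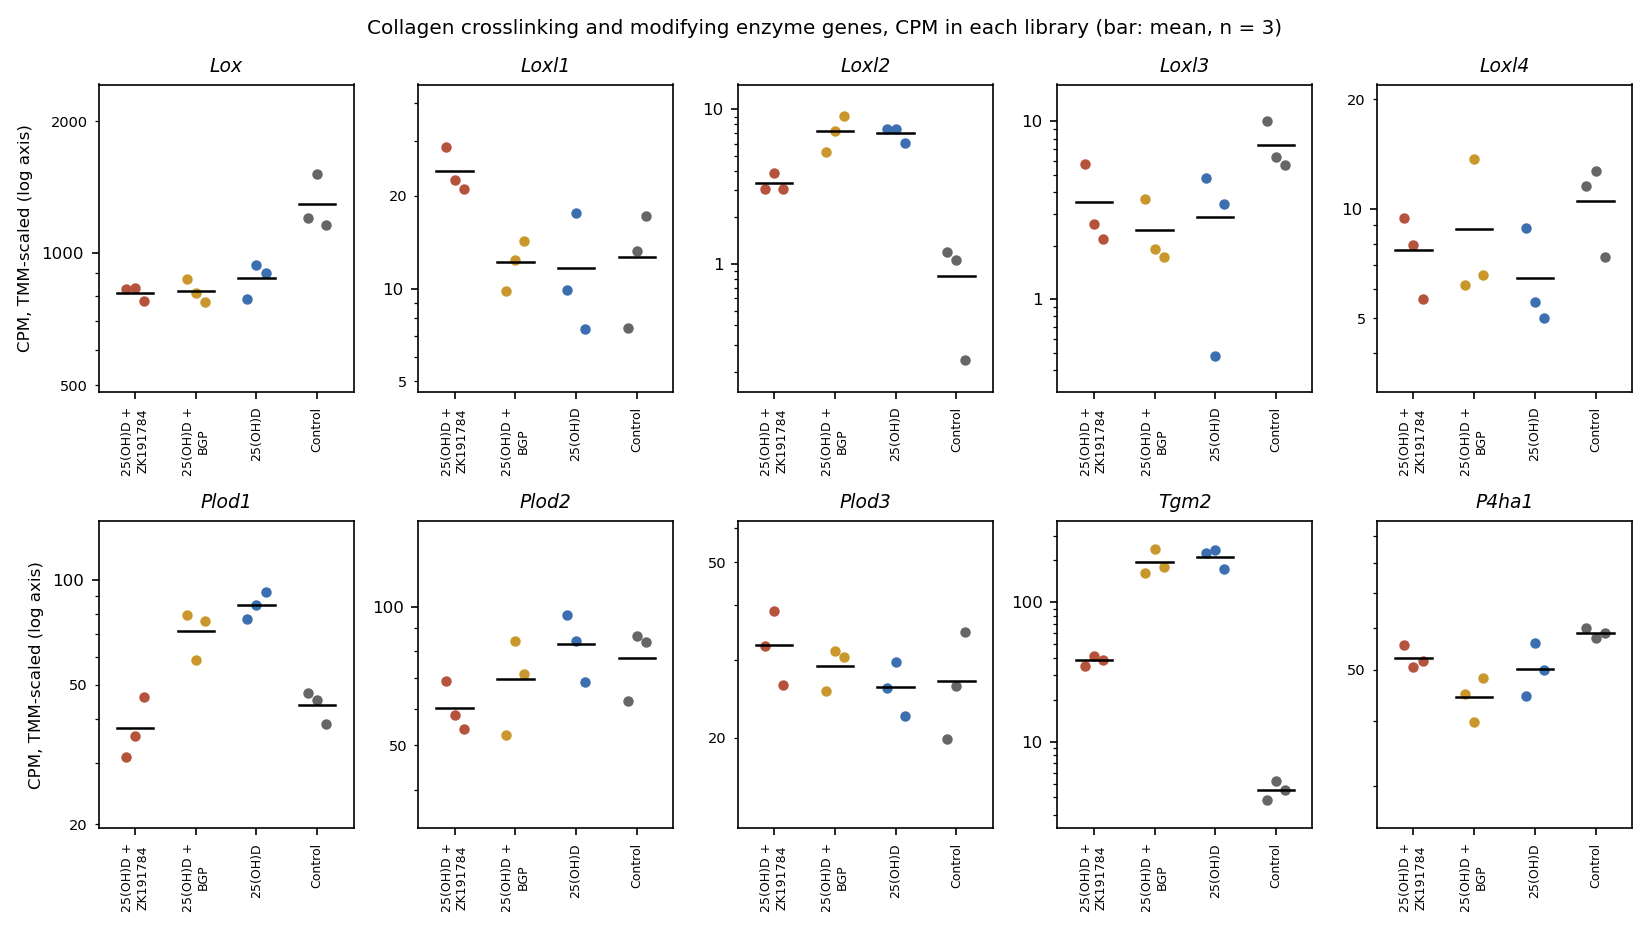
Level of each enzyme gene in every library, as TMM-scaled CPM on a log axis with its own range per gene, for 25(OH)D with ZK191784, 25(OH)D with BGP, 25(OH)D and control. Points are libraries and bars are means of 3. Tgm2 lies between 3.84 and 5.27 CPM in control and between 163 and 239 CPM in all 6 libraries given 25(OH)D without ZK191784.

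Cells given 25(OH)D were first set against control cells. Of the 10 enzyme genes, 3 rose and 1 fell, where 8.68% of all tested genes were called, 4.76% as higher and 3.93% as lower. In bulk RNA, fewer cells of a type and less RNA per cell cannot be told apart. Tgm2, Loxl2 and Plod1 were higher and Lox was lower. The median log2 fold change was −0.08 over the 10 genes and −0.05 over all genes tested. The libraries of both groups did not overlap for 6 of the 10 genes, and did not for 21.9% of all genes tested.

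Among the lysyl oxidases, Lox encodes the founding member of the family, which crosslinks collagen and elastin. Its level was 788, 941 and 903 CPM in the 25(OH)D libraries and 1199.9, 1514 and 1160.4 CPM in the control libraries. Every 25(OH)D library was below every control library. Lox fell by 0.56 on the log2 scale (SE 0.13, edgeR adjusted p = 0.0197), so that 25(OH)D cells held 0.679 times the control level. The call was lost without 25(OH)D library 1 (adjusted p = 0.0919), 25(OH)D library 2 (0.0565) or control library 2 (0.0859), and in a fit of these 6 libraries alone (0.136).

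Loxl2, of the same family and known to act on type IV collagen of basement membranes, had few counts. There were 28, 31 and 23 counts in the 25(OH)D libraries and 5, 5 and 1 in the control libraries. On the CPM scale this was 7.01 ± 0.81 with 25(OH)D and 0.830 ± 0.518 in control (SD, n = 3 each). The groups did not overlap, and Loxl2 rose by 3.03 ± 0.45 on the log2 scale (SE, adjusted p = 0.000846), with an adjusted p of at most 0.0158 under every alternative tried. The control libraries held 11 Loxl2 counts in all, which limits the precision of the fold.

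Loxl3 and Loxl4 encode further lysyl oxidases that share the scavenger receptor domains of Loxl2. Loxl3 had 4.81, 0.482 and 3.43 CPM in the 25(OH)D libraries and 10.1, 6.32 and 5.71 CPM in the control libraries. The middle 25(OH)D library held 2 counts, and the groups did not overlap. Its log2 difference, −1.35 ± 0.61, was not called (adjusted p = 0.249), and it passed when the ribosomal protein ratio was put in the model (0.0470), where 19.9% of all genes were called. Loxl4 averaged 6.46 ± 2.06 CPM with 25(OH)D and 10.5 ± 2.77 CPM in control (−0.70 ± 0.39, adjusted p = 0.363). Loxl1, known for its part in elastic fibre maintenance, averaged 11.6 ± 5.32 CPM with 25(OH)D and 12.6 ± 4.88 CPM in control, and its log2 difference of −0.11 had a 95% interval of −0.89 to 0.67. Lox made up 96.9% of the counts of the 5 lysyl oxidase genes with 25(OH)D and 97.6% in control, so their sum follows Lox, while the share of Loxl2 was 0.780% with 25(OH)D and 0.0618% in control.

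Among the lysyl hydroxylases, Plod1 encodes the enzyme that acts on lysines of the helical domain and whose loss causes a kyphoscoliotic Ehlers-Danlos syndrome. Its level was 77.3, 84.6 and 91.9 CPM in the 25(OH)D libraries and 47.5, 45.3 and 38.8 CPM in the control libraries. Every 25(OH)D library was higher. Plod1 rose by 0.95 ± 0.18 on the log2 scale, or 1.93-fold (adjusted p = 0.00500). Plod2, which hydroxylates lysines of the telopeptides, was at 96.0, 84.4 and 68.7 CPM with 25(OH)D and at 62.3, 86.2 and 84.0 CPM in control, and the groups overlapped. Its log2 difference was 0.10 (95% interval −0.35 to 0.54). Plod3, which also carries glycosyltransferase activity toward hydroxylysine, differed by −0.05 (−0.55 to 0.46), at 26.0 ± 3.60 CPM with 25(OH)D and 26.9 ± 7.45 CPM in control.

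Tgm2 encodes tissue transglutaminase, which joins glutamine and lysine side chains of matrix proteins and also binds GTP. It stood at 226, 237 and 172 CPM in the 25(OH)D libraries and at 3.84, 5.27 and 4.52 CPM in the control libraries. In counts this was 846, 982 and 651 against 16, 25 and 19. The log2 fold change was 5.53 ± 0.23, a 46.2-fold rise (adjusted p = 3.60e-08). It was the largest of the 10 log2 fold changes, and over all alternatives it lay between 5.42 and 5.66.

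P4ha1 encodes a catalytic subunit of prolyl 4-hydroxylase. It was at 44.7, 56.2 and 49.9 CPM with 25(OH)D and at 60.2, 57.5 and 58.8 CPM in control. All 25(OH)D libraries were lower, but the difference, −0.23 ± 0.14 on the log2 scale, was not called (adjusted p = 0.443).

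**Figure D2:**
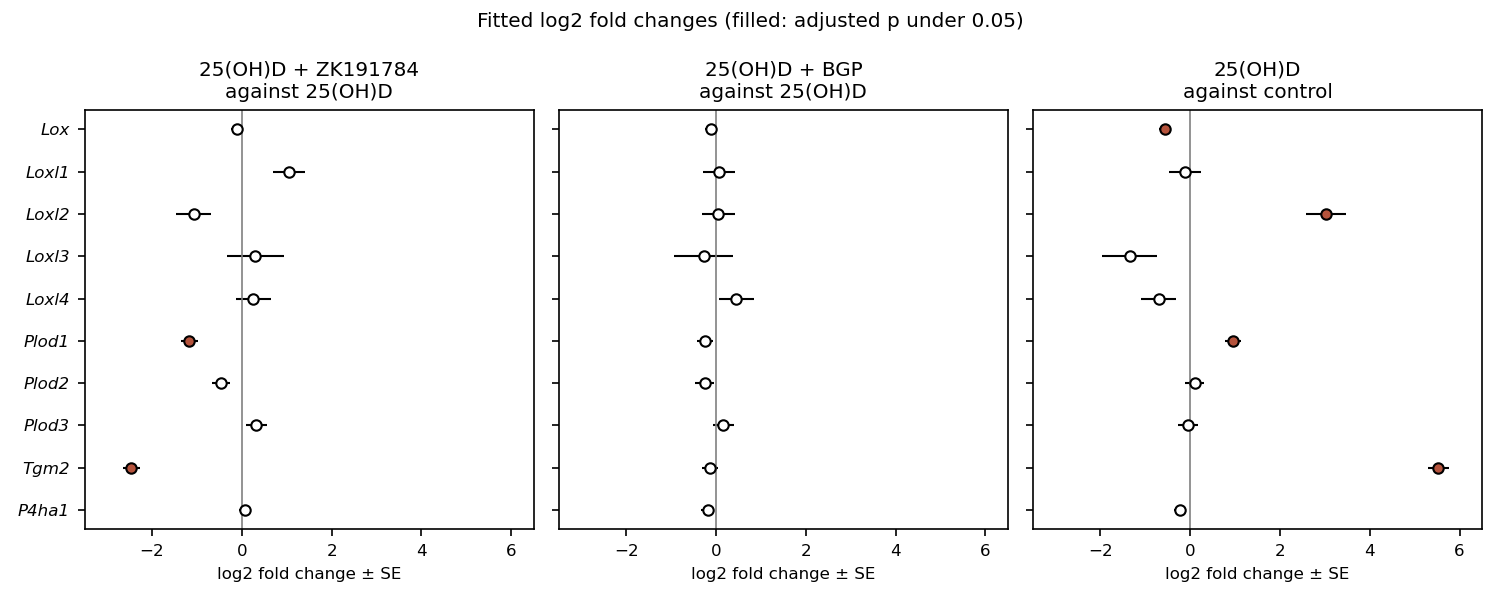
Fitted log2 fold change with its SE for each enzyme gene (horizontal axis), in 25(OH)D with ZK191784 against 25(OH)D, 25(OH)D with BGP against 25(OH)D, and 25(OH)D against control. Filled points have an adjusted p under 0.05. Tgm2 stands at 5.53 against control and at −2.47 with ZK191784, and all points of the BGP panel are open.

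The next comparison concerned the added 4 mM of BGP in the presence of 25(OH)D. Of the 10 enzyme genes 0 were called by edgeR, as were 0% of all genes tested, and 0 of the 10 had an unadjusted p under 0.05, against 268 of all genes. The libraries of both groups overlapped for all 10, and did not for 6.04% of all genes. DESeq2 called 0 of the 10 too. Tgm2 was at 163, 239 and 178 CPM with BGP and at 226, 237 and 172 CPM without, and the groups overlapped. Its log2 difference was −0.13, with a 95% interval of −0.52 to 0.26. Plod1 was at 79.1, 58.9 and 76.2 CPM with BGP and 84.6 ± 7.31 CPM without (−0.25, interval −0.64 to 0.14). Lox averaged 818 ± 50.2 CPM with BGP and 877 ± 79.7 CPM without, and its interval ran from −0.39 to 0.19. Loxl2 averaged 7.22 ± 1.87 and 7.01 ± 0.81 CPM, with an interval of −0.74 to 0.84. The largest of the differences was that of Loxl4, at 0.45 ± 0.39, with 6.17, 13.7 and 6.56 CPM with BGP and 8.83, 5.54 and 5.02 CPM without. These intervals exclude a 2-fold change for Lox, Plod1, Plod2, Plod3, Tgm2, P4ha1, Loxl1 and Loxl2, but not for Loxl3 or Loxl4.

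A further comparison set ZK191784 together with 25(OH)D against 25(OH)D alone. Of the 10 enzyme genes 2 fell and 0 rose, where 3.53% of all tested genes were called, 1.42% as higher and 2.11% as lower. For 4 of the 10 the libraries did not overlap, as for 17.6% of all genes. Both were among the genes that were higher with 25(OH)D than in control. This comparison uses the same 25(OH)D libraries as the first, so the directions of both are not independent.

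Tgm2 was at 35.0, 41.0 and 38.9 CPM with ZK191784 and at 226, 237 and 172 CPM with 25(OH)D alone. Its log2 fold change was −2.47 ± 0.19 (SE, adjusted p = 1.71e-05), which is 0.181 times the level with 25(OH)D alone. The ZK191784 libraries lay between the 25(OH)D and the control libraries, with no overlap on either side. Against control, Tgm2 with ZK191784 was still higher, at 38.3 ± 3.03 CPM and 4.54 ± 0.72 CPM (log2 3.06 ± 0.22, adjusted p = 1.93e-05).

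Plod1 was at 31.1, 35.7 and 46.1 CPM with ZK191784 and at 77.3, 84.6 and 91.9 CPM with 25(OH)D alone. It fell by 1.17 (SE 0.18, adjusted p = 0.00280). The ZK191784 libraries overlapped those of control, at 47.5, 45.3 and 38.8 CPM, and the log2 difference from control of −0.22 had a 95% interval of −0.62 to 0.18.

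Loxl2 had 15, 16 and 14 counts with ZK191784 and 28, 31 and 23 with 25(OH)D alone. The groups did not overlap at 3.32 ± 0.46 and 7.01 ± 0.81 CPM, but the difference, −1.07 ± 0.38 on the log2 scale, was not called (adjusted p = 0.214). Against control it was 1.95 ± 0.47 and was not called by edgeR (adjusted p = 0.101), though it passed with DESeq2 (0.0267) and when the ribosomal protein ratio was put in the model (0.0151), where 4.7% of all genes were called.

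Lox was at 828, 831 and 779 CPM with ZK191784 and at 788, 941 and 903 CPM with 25(OH)D alone, a log2 difference of −0.11 with an interval of −0.40 to 0.18. Against control Lox with ZK191784 was lower by the test (−0.67 ± 0.13, adjusted p = 0.0421), with no overlap of the libraries. That call was lost, at adjusted p values between 0.0572 and 0.227, without any 1 library other than 25(OH)D library 1 or control library 3.

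Loxl1 differed in its pattern from Lox. It stood at 28.7, 22.4 and 21.1 CPM with ZK191784 and at 9.90, 17.6 and 7.40 CPM with 25(OH)D alone, and all ZK191784 libraries were above those of every other group. The log2 difference of 1.04 ± 0.35 did not pass (adjusted p = 0.180), and it did when the ribosomal protein ratio was put in the model (0.00293), where 11.5% of all genes were called. Within groups Loxl1 moved with that ratio, by 0.40 on the log2 scale per unit. Plod2 averaged 60.3 ± 7.58 CPM with ZK191784 and 83.0 ± 13.7 CPM with 25(OH)D alone (−0.46 ± 0.21, adjusted p = 0.415), and Plod3 averaged 32.5 ± 6.25 and 26.0 ± 3.60 CPM (0.32 ± 0.23, adjusted p = 0.761). The Plod2 difference passed with the ratio in the model (0.0244). P4ha1 averaged 52.8 ± 2.62 CPM with ZK191784 and 50.3 ± 5.76 CPM with 25(OH)D alone, with an interval of −0.24 to 0.38. Loxl3 and Loxl4 differed by 0.30 ± 0.63 and 0.25 ± 0.39.

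The combination with BGP was also set against control, where 3 of the 10 genes rose and 1 fell and 8.25% of all genes were called, 3.9% as higher and 4.35% as lower. The libraries did not overlap for 6 of the 10, as for 21% of all genes. Tgm2 (193 ± 40.5 CPM with 25(OH)D and BGP, 4.54 ± 0.72 CPM in control) rose by 5.40 ± 0.23 and Loxl2 by 3.08 ± 0.45. Plod1 rose by 0.70 ± 0.18 (71.4 ± 10.9 and 43.9 ± 4.53 CPM, adjusted p = 0.0310), and Lox fell by 0.66 (SE 0.13, adjusted p = 0.00771). The Plod1 call was lost in 7 of 12 fits that left out 1 library, with adjusted p values between 0.0505 (without ZK191784 library 2) and 0.120 (without BGP library 3). The Lox call was lost without BGP library 3 (0.0560). Both calls were also lost in a fit of the 2 groups alone (adjusted p = 0.0931 for Plod1 and 0.0967 for Lox). P4ha1 was at 44.9, 39.8 and 48.2 CPM with 25(OH)D and BGP and at 60.2, 57.5 and 58.8 CPM in control, and did not pass (−0.41 ± 0.14, adjusted p = 0.117). With the ribosomal protein ratio in the model P4ha1 (0.0397) and Loxl3 (0.0155) passed as lower than control, where 18.7% of all genes were called. Between 25(OH)D with ZK191784 and control 1 gene rose and 1 fell, which were Tgm2 and Lox, where 0.723% of all genes were called, 0.507% as higher and 0.215% as lower. The libraries did not overlap for 5 of the 10, as for 11.8% of all genes. Both combinations share the control libraries with the first comparison.

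The order of the group means differed between the genes. For Tgm2 it ran 25(OH)D, 25(OH)D with BGP, 25(OH)D with ZK191784 and control, and of the neighbours in that order only the first pair overlapped. Loxl2 had the same order except that the first pair was exchanged, again with overlap only between that pair. For Plod1 the order was 25(OH)D, 25(OH)D with BGP, control and 25(OH)D with ZK191784, and only the middle pair was free of overlap. For Lox, control stood above the other groups, which overlapped one another. For Loxl1, 25(OH)D with ZK191784 stood above the rest, and for P4ha1 control did. Neighbouring groups overlapped throughout the order for Loxl3, Loxl4, Plod2 and Plod3.

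Across the 12 libraries, the genes outside the list whose log2 CPM ran most like that of Tgm2 were Uaca (Pearson r = 0.995), Inmt (0.994) and Dgat1 (0.990). Dgat1, an enzyme of triglyceride synthesis, averaged 254 CPM in 25(OH)D with ZK191784, 837 CPM in 25(OH)D with BGP, 950.3 CPM in 25(OH)D and 70.4 CPM in control. For Loxl2 they were Baz1b (0.969), Rarres2 (0.967) and Trib1 (0.964), and for Plod1 they were Orai1 (0.976) and Rnf19b (0.974). Rarres2, the gene of the chemoattractant chemerin, averaged 4.00, 16.7, 16.7 and 0.652 CPM in the same order of groups. These values describe likeness over libraries that share 4 group means.

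The substrates moved by more than most of the enzymes. Col1a1, the gene of the main chain of type I collagen, averaged 5990.1 ± 1387 CPM with 25(OH)D and 27006 ± 4633 CPM in control, and fell by 2.17 (SE 0.20, adjusted p = 2.32e-05). With ZK191784 it averaged 16213 ± 2683 CPM, against 5990.1 ± 1387 CPM with 25(OH)D alone (1.44 ± 0.20, adjusted p = 0.00124). Of 9 tested genes of fibrillar collagen chains, 7 fell with 25(OH)D and 0 rose, with a median log2 fold change of −2.12 against −0.05 over all genes. Of all tested genes 3.93% were called lower and 4.76% higher in this comparison. Besides Col1a1, the log2 fold change was −2.96 for Col11a1, −2.61 for Col11a2 and −2.12 for Col3a1. Col1a2, the partner chain, fell by 1.99 (SE 0.45, adjusted p = 0.0142). With ZK191784, 5 of the 9 were higher than with 25(OH)D alone, where 1.42% of all tested genes were called higher. Among them were Col11a1 (1.68 ± 0.15), Col11a2 (2.00 ± 0.26) and the cartilage collagen gene Col2a1 (4.02 ± 0.55). The libraries with 25(OH)D alone held 14 Col2a1 counts in all, which limits the precision of its fold. Col1a2 was not called in this comparison (1.36 ± 0.44, adjusted p = 0.155).

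Within a library the number of enzyme counts per 1000 Col1a1 counts needs no scaling between libraries. For Lox it was 154 ± 46.9 with 25(OH)D and 48.8 ± 10.7 in control, although Lox itself was lower. For Plod2, whose own level was not called in any of the comparisons above without the ribosomal protein ratio in the model, it was 14.1 ± 1.34 with 25(OH)D and 2.88 ± 0.30 in control. Plod1 had 14.9 ± 5.19 with 25(OH)D and 1.68 ± 0.45 in control, and Tgm2 had 35.8 ± 3.44 and 0.170 ± 0.027. With ZK191784 the ratios were 50.9 ± 7.31 for Lox, 3.75 ± 0.41 for Plod2, 2.43 ± 0.95 for Plod1 and 2.42 ± 0.51 for Tgm2. In the libraries with BGP they were 167 ± 22.5, 14.0 ± 2.10, 14.7 ± 3.29 and 38.9 ± 5.15. The 25(OH)D and control libraries did not overlap for any of these 4 genes. Nor did they for Plod3 (3.68 to 5.08 with 25(OH)D, 0.885 to 1.09 in control) or P4ha1 (6.34 to 11.3, 1.85 to 2.68). The levels of both were not called. The ratios of Loxl1 (1.404 to 2.705, 0.3306 to 0.5396) and Loxl2 (1.063 to 1.375, 0.007494 to 0.05332) did not overlap either. Nor did those of Loxl4 (0.8524 to 1.253, 0.2323 to 0.5119). Only the ratios of Loxl3 overlapped (0.0741 to 0.777, 0.180 to 0.448). The ratio mixes the change of the enzyme with that of Col1a1, so such a gap is not particular to these genes. The share of all genes with such a gap was not counted, so no conclusion on the enzymes is drawn from the gaps.

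**Figure D3:**
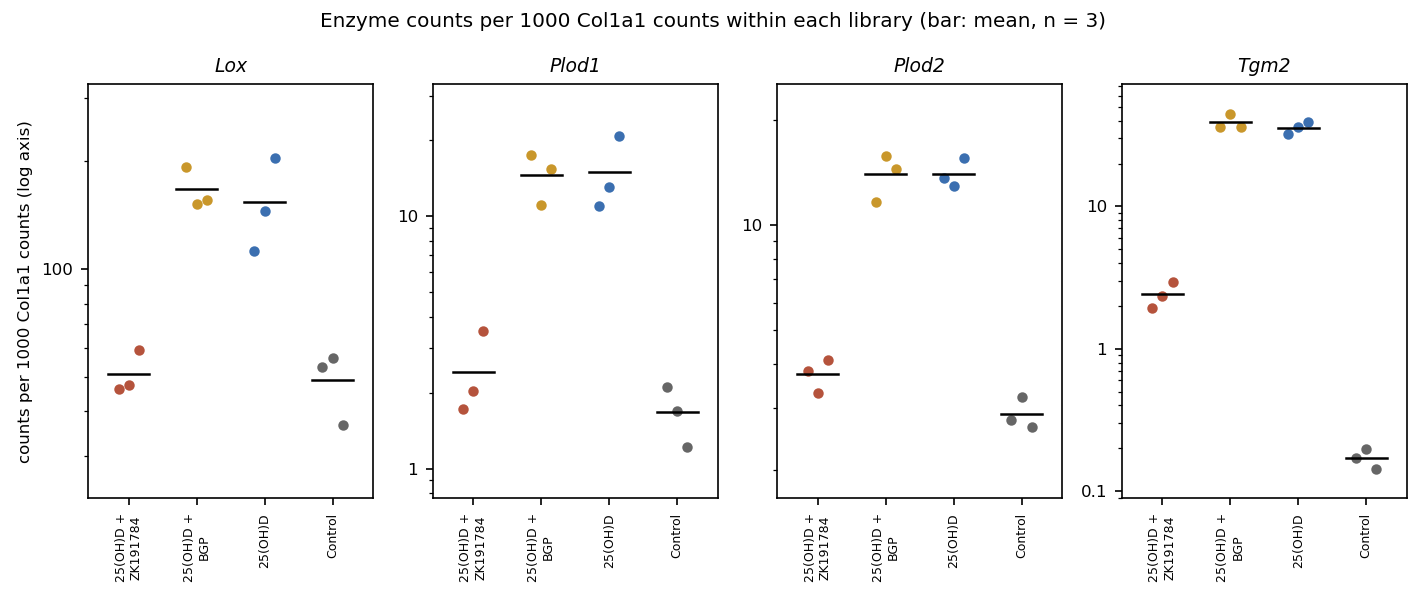
Counts of Lox, Plod1, Plod2 and Tgm2 per 1000 Col1a1 counts of the same library, on a log axis, for the 4 groups. Points are libraries and bars are means of 3. For Lox the 25(OH)D libraries average 154 and the control libraries 48.8, with those of ZK191784 at 50.9.

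Other genes of collagen biosynthesis mostly did not pass the test or were lower with 25(OH)D. Of 8 tested genes of prolyl hydroxylase partners and prolyl 3-hydroxylation, 1 fell and 0 rose (median log2 −0.83). This was P3h1, a prolyl 3-hydroxylase, at 38.5 ± 10.00 CPM with 25(OH)D and 105.7 ± 34.5 CPM in control (−1.46 ± 0.29, adjusted p = 0.00647). When the ribosomal protein ratio was put in the model 7 of the 8 fell, and 9 of the 11 of the next list, but calls then rose over the whole table, with 9.72% of all genes called lower, against 3.93% without the ratio. Of 11 tested genes of collagen glycosylation, folding and export, 4 fell and 0 rose. The peptidyl-prolyl isomerase genes Fkbp7, Fkbp10 and Fkbp14 fell, with log2 fold changes of −1.58, −1.01 and −1.58, and Sec24d, a coat protein gene for export of procollagen, fell by 1.05. Fkbp10, whose product assists the hydroxylation of telopeptide lysines, was at 70.4 ± 7.12 CPM with 25(OH)D and 142 ± 20.3 CPM in control. The Sec24d call was lost without 25(OH)D library 2 (adjusted p = 0.0598) or 3 (0.0631) and in a fit of the 2 groups alone (0.0724). With ZK191784, Fkbp7 rose by 0.96 ± 0.17 and Fkbp10 by 0.69 ± 0.15 over 25(OH)D alone. The Fkbp10 call was lost without any 1 of the 6 libraries of this comparison, at adjusted p values between 0.0596 and 0.0985.

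Among 6 tested genes of propeptide processing, 1 rose and 2 fell with 25(OH)D, where 4.76% of all tested genes were called higher and 3.93% lower. Bmp1, the procollagen C-proteinase that also activates pro-lysyl oxidase, rose by 1.21 ± 0.20 (177 ± 34.5 CPM with 25(OH)D and 76.5 ± 13.6 CPM in control, adjusted p = 0.00172). Its enhancers Pcolce and Pcolce2 fell, with log2 fold changes of −1.35 ± 0.13 and −3.63 ± 0.45. The 25(OH)D libraries held 15 Pcolce2 counts in all and the control libraries 209, which limits the precision of its fold. With ZK191784, Pcolce and Pcolce2 were higher than with 25(OH)D alone, by 1.03 ± 0.13 and 2.41 ± 0.45, a call that Pcolce2 lost without 25(OH)D library 1 (adjusted p = 0.0535). Bmp1 differed by −0.44 ± 0.20 and did not pass (0.415). Of 8 tested genes of copper supply and lysyl oxidase partners 1 rose, the copper transporter gene Atp7a (0.52 ± 0.15, adjusted p = 0.0464). That call was lost without any 1 of the 12 libraries, at adjusted p values between 0.0509 and 0.193. Slc31a1, of the same list, differed by −0.52 ± 0.16 and did not pass (adjusted p = 0.0771), with no overlap of the libraries.

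Of the 9 other transglutaminase family genes, F13a1 was the only one with enough counts to be tested. It encodes the catalytic subunit of coagulation factor XIII, a transglutaminase also made by osteoblasts. F13a1 was at 31.5 ± 1.85 CPM with 25(OH)D and 8.42 ± 2.83 CPM in control and rose by 1.90 ± 0.27 (adjusted p = 0.000613). With ZK191784 it was at 12.96 ± 1.83 CPM, against 31.5 ± 1.85 CPM with 25(OH)D alone, and fell by 1.28 (SE 0.26, adjusted p = 0.0156). The call with ZK191784 was lost without ZK191784 library 1 (adjusted p = 0.0555), 2 (0.0990) or 3 (0.0537) and without 25(OH)D library 1 (0.0572) or 2 (0.0511). Tgm1 summed to 22, 15, 12 and 13 counts in 25(OH)D with ZK191784, 25(OH)D with BGP, 25(OH)D and control, and Tgm4 to 0 in each.

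**Figure D4:**
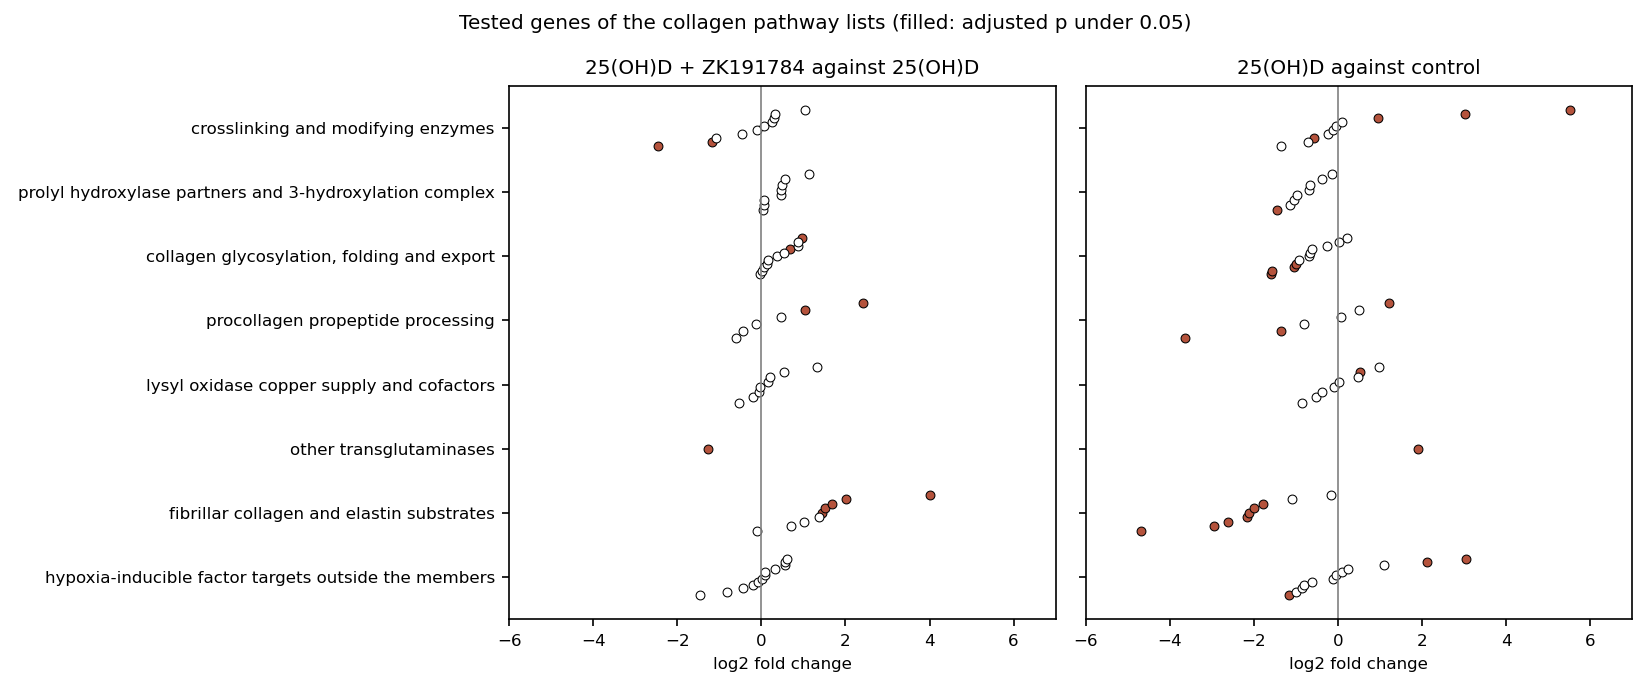
Log2 fold changes of the tested genes of each collagen pathway list (horizontal axis), in 25(OH)D with ZK191784 against 25(OH)D and in 25(OH)D against control. Each point is a gene, filled where its adjusted p was under 0.05. With 25(OH)D 7 of 9 collagen substrate genes were called lower, while 3 crosslinking or modifying enzymes were called higher and 1 lower. Of all tested genes 4.76% were called higher and 3.93% lower.

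Some of the genes overlap others in the reference annotation, and the strand setting of the counting is not given in the sources used here. Loxl3 overlaps Htra2 on the opposite strand, which summed to 37, 54, 30 and 58 counts in 25(OH)D with ZK191784, 25(OH)D with BGP, 25(OH)D and control. Plod3 overlaps Znhit1, with 350, 331, 286 and 402 counts, and Tgm2 overlaps Rprd1b, with 1779, 1697, 1800 and 1677 counts in the same order. The named genes and antisense entries that overlap Loxl2 had 0 counts in all groups.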

How the data were processed

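Counts per gene symbol and library were used as deposited. The submitters' processing notes name STAR 2.7.9a, Subread 2.0.3 with featureCounts, DESeq2 1.38.2 and build mm39, with no roles. Libraries were QuantSeq 3′ mRNA-seq of TRIzol RNA, per the labels' protocols. Annotation release and strand: not given in the sources used here. Entries that repeat a symbol (882) were treated as separate genes.

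Genes were kept by filterByExpr (minimum count 10, minimum total 15), which left 14394 genes with 99.4% of the counts. TMM scaling and 1 quasi-likelihood model over all 12 libraries, with 1 coefficient per group and no block, were fitted with edgeR 4.0.16 in R 4.3.3. Calls are at a Benjamini-Hochberg adjusted p under 0.05 over all genes. SE is the absolute log2 fold change over the square root of F, and ± after CPM is the SD. CPM are TMM-scaled. p-values measure the spread between these libraries, which may be technical. The common biological coefficient of variation was 0.292.

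The genes, lists and tests were chosen with earlier results of these data known. All 10 genes were named whatever their result, with up to 4 called genes of smallest p per list against control and up to 3 with ZK191784, and the 3 genes of highest correlation for each of the 3 members with the smallest p, of which 1 gene is not reported here. Col1a2 was named as a substrate, and Tgm1, Tgm4, Eln, Slc31a1, the single cell type markers and the overlapping genes were named after their values were seen. Alternatives were RLE scaling, DESeq2 1.42.0, no filter, CPM of at least 2 in 3 libraries, a replicate block, only the compared groups, the ribosomal protein ratio in the model, and leaving out each library. The 95% intervals use the t quantile of the model. Plots used Python 3.11.15 and matplotlib 3.10.9.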

Additional observations from a re-analysis of the deposited data

How the results depend on the processing

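The 19 alternatives gave 950 values for the 10 enzyme genes, of which 894 kept their direction and their side of the threshold. Of the others 28 lost a call, 8 gained one and 20 changed sign, the last all between uncalled values in fits that left out 1 library. Tgm2, Loxl2 and Plod1 with 25(OH)D against control, and Tgm2 and Plod1 with ZK191784 against 25(OH)D, were called under every alternative. In the fits that left out 1 library, the log2 fold changes that changed sign were, for 25(OH)D against control, Loxl1 (−0.53 to 0.18), Plod2 (−0.037 to 0.22) and Plod3 (−0.23 to 0.19). For 25(OH)D with BGP against 25(OH)D they were Loxl1 (−0.17 to 0.50), Loxl2 (−0.15 to 0.22), Loxl3 (−0.78 to 0.31) and Loxl4 (−0.0025 to 0.74). For 25(OH)D with ZK191784 against 25(OH)D they were Loxl3 (−0.25 to 0.87) and P4ha1 (−0.0075 to 0.17), and for 25(OH)D with BGP against control Loxl1 (−0.31 to 0.25), Plod2 (−0.29 to 0.0080) and Plod3 (−0.060 to 0.36).

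Leaving out 1 library gave 813 to 1308 called genes in the whole table for 25(OH)D against control (lowest without 25(OH)D library 2), 269 to 566 for ZK191784 against 25(OH)D and 34 to 121 for ZK191784 against control (both lowest without ZK191784 library 2), where all libraries gave 1250, 508 and 104. The number of enzyme genes called lower was 0 to 1 against control for 25(OH)D, for BGP and for ZK191784. In the fit of only the 2 groups compared, 763, 712 and 42 genes were called for 25(OH)D, 25(OH)D with BGP and 25(OH)D with ZK191784 against control, and 0 enzyme genes were called lower in each. The cause was not tested, other than that fewer libraries were fitted. With the ribosomal protein ratio in the model 2859, 2691 and 676 genes were called in these comparisons, 6 for BGP and 1651 for ZK191784 against 25(OH)D. Enzyme genes called lower were then 2 for 25(OH)D and 3 for BGP against control, where 9.72% and 10.7% of all genes were called lower. Those called higher were 3 for ZK191784 against control and 1 for ZK191784 against 25(OH)D, where 2.42% and 5.48% of all genes were called higher. With the ratio 7 of the 10 differed among the 4 groups, where 19.8% of all genes did, against 7.5% without the ratio. DESeq2 called 797 genes for ZK191784 against 25(OH)D and 264 against control, with 2 enzyme genes higher in the second. Without the filter 220 genes were called for ZK191784 against control, and when genes needed 2 CPM in 3 libraries 0 enzyme genes were lower there (Lox, adjusted p = 0.0546). The Atp7a, Vegfa and Ddit4 calls against control were lost without the filter (adjusted p = 0.266, 0.0599 and 0.0800).

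Most pairs of libraries of the same number did not deviate together, and whether such libraries were prepared together was not tested. Of 18 same-numbered pairs 4 had a correlation of their deviations over 0.1 (range −0.71 to 0.61), and 3 of 12 libraries correlated best with one of their own number. A replicate block gave 334 called genes for ZK191784 against 25(OH)D and 56 against control, where 0 enzyme genes were then lower, and 953 for 25(OH)D against control. Under the block Plod1 with BGP against control (adjusted p = 0.0720) and Lox with ZK191784 against control (0.111) were not called, nor were Sec24d (0.0573) and Atp7a (0.0716) with 25(OH)D against control or Fkbp10 with ZK191784 against 25(OH)D (0.0585). Depth limits Loxl2, Loxl3 and Loxl4 most, with group sums of 11 to 139 counts.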

Other observations

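Lox, Plod1, Plod2 and P4ha1 are known targets of hypoxia-inducible factors, and 12 other such genes were tested. With 25(OH)D against control 2 of the 12 rose and 1 fell, where 4.76% of all tested genes were called higher and 3.93% lower. Their median log2 fold change was −0.08 against −0.05 over all genes. Vegfa, the gene of an angiogenic growth factor, was at 189 ± 103 CPM with 25(OH)D and 22.9 ± 9.37 CPM in control (3.04 ± 0.57, adjusted p = 0.00450). Ddit4, a stress-induced inhibitor of mTOR signalling, averaged 629 ± 253 and 145 ± 58.5 CPM (2.12 ± 0.42, adjusted p = 0.00647). Ldha, of lactate production, fell by 1.16 (SE 0.13), to 318 ± 16.7 CPM with 25(OH)D, against 711 ± 61.1 CPM in control. Between 25(OH)D with ZK191784 and 25(OH)D alone 0 of the 12 were called, where 3.53% of all tested genes were. With ZK191784 Vegfa averaged 68.3 ± 22.1 CPM, and its log2 difference of −1.46 ± 0.53 did not pass (adjusted p = 0.234). Ldha differed by 0.31 ± 0.13 and Ddit4 by −0.21 ± 0.41. The libraries did not overlap for Vegfa and Ldha and overlapped for Ddit4.

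The share of Plod1 in the counts of the 3 lysyl hydroxylase genes was 28.9 ± 6.69% with ZK191784, 42.3 ± 8.27% with BGP, 43.9 ± 5.82% with 25(OH)D alone and 30.0 ± 6.09% in control (SD, n = 3 each). The share of Plod2 was 46.2 ± 5.06%, 40.6 ± 7.37%, 42.7 ± 5.34% and 52.0 ± 3.50% in the same order. Within groups the level of Plod1 moved with the log2 ratio of ribosomal protein genes to Gm-numbered genes and pseudogenes by −0.30 on the log2 scale per unit, and Plod2 and Plod3 by 0.35 and 0.31.

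Elastin, the other main substrate of lysyl oxidases, was too rare to be tested. Eln summed to 19 counts with ZK191784, 6 with BGP, 5 with 25(OH)D alone and 14 in control.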
